A study of Mus musculus with 6 samples.

Results

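The genes described here encode 10 transcriptional regulators of the B lymphocyte lineage: Pax5, Ebf1, Ikzf1, Ikzf3, Bach2, Bcl6, Lef1, Sox4, Bcl11a and Pou2af1. They were picked by name as factors of this lineage, each was measured by 1 probe that names that gene alone, and together they make up 10 of the 19938 genes measured by such probes. Expression was compared in pre-B cells of the mouse that had been transformed by BCR-ABL1, the fusion kinase of Philadelphia chromosome-positive acute lymphoblastic leukaemia, on 6 Affymetrix arrays of total RNA. All cells came from the FvB/N strain with the genotype SPRY1/2 fl/fl, so that the Sprouty genes Spry1 and Spry2 could be deleted by Cre recombinase. Control cells (3 arrays) carried the vector PMIP-ERT2, the comparison cells (3 arrays) carried PMIP-CRE-ERT2, and both were puromycin-resistant and had received 0.5 µM 4-hydroxytamoxifen for 2 days. The comparison therefore holds the loss of the Sprouty genes together with the activity of the recombinase, and cells with Cre but no floxed allele were not analysed here. No label tells whether the 3 arrays of either group stem from independent cultures or clones, and the spread behind each p-value may thus be technical.

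B cell identity is laid down in steps. EBF1 and PAX5 switch on the genes of the pre-B cell receptor and of B cell signalling, and PAX5 also holds down genes of other blood lineages. Ikaros (Ikzf1) and Aiolos (Ikzf3) are zinc finger proteins that end the proliferation of large pre-B cells, and Ikaros is a tumour suppressor in BCR-ABL1 leukaemia. BACH2 and BCL6 are repressors that share plasma cell genes as targets but oppose each other at checkpoint genes in pre-B cells. LEF1 and SOX4 are HMG-box factors of early B cell precursors. BCL11A is a zinc finger repressor needed for early lymphoid development, and Pou2af1 encodes OCA-B, a coactivator of octamer-binding factors. Sprouty proteins dampen the RAS and ERK signals that receptor tyrosine kinases send.

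The promoters of the pair of factors with the largest positive differences, Bach2 and Pou2af1, are shown because these genes stood highest above control. Each sequence is the 250 bases before the gene's annotated start in RefSeq's GRCm38.p6 table, read 5′ to 3′ on the strand of the gene, with CCAAT boxes and the CREB half-site TGACG, on either strand, in capitals.
Bach2 (chr4:32417185-32417434, + strand): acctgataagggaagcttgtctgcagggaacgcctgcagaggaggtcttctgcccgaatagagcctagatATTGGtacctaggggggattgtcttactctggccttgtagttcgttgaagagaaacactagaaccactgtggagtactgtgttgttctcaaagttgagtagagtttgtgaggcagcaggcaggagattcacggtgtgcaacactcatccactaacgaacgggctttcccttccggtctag
Pou2af1 (chr9:51213440-51213689, + strand): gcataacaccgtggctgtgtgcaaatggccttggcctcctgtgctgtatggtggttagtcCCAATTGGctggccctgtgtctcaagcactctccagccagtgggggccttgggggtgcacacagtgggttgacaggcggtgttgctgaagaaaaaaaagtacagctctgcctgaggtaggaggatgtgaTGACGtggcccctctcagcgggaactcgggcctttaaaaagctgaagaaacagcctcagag
Of the 10 genes, 9 had a promoter in that table, in 15 windows, and the other is Ikzf3. CCAAT was found, on either strand, in the windows of Bach2, Bcl11a, Pou2af1 and Sox4, and in 33.8% of all 32851 promoter windows of this length. The matches in the Pou2af1 window lie on opposite strands and overlap. TGACG was found for Bcl6 and Pou2af1 (17.8% of all windows). The octamer ATTTGCAT (1.6% of all windows) and the AP-1 site TGANTCA (6.75%) were found in 0 of the windows of these genes.

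Both targeted genes were lower with Cre-ERT2, at 47.8% of the control signal for Spry2 and 55.7% for Spry1 (limma adjusted p = 0.00162 and 0.00462). The medians of the arrays lay between 7.73 and 7.81 on the deposited log2 scale, and their correlations over all probes lay between 0.992 and 0.997. Control 1 stood apart from the other control arrays, with the highest median and the lowest weight when arrays were weighted by quality (0.322, against 0.662 to 2.36). The pre-B cell label was borne out by most of its markers. The pre-B receptor genes Igll1 and Cd79b were the brightest of them, with control means of 14.22 and 13.82. These lay above the upper quartile of the arrays (9.84 to 9.96), while Rag1 (9.94) lay within that range and Rag2 (9.12) below it. Markers of mast cells differed between the groups. Cpa3 was the brightest with a control mean of 12.02 and Fcer1a was next at 8.61. Most of the others had control means below the lowest array median. The mean log2 level of the mast cell markers over 15 measured genes on arrays 1, 2 and 3 was 7.75, 7.28 and 7.48 for control cells. It was 8.91, 7.90 and 8.31 for Cre-ERT2 cells, and 15 of 15 differences were positive (36.9% over all genes). Of these, Tpsb2, Tpsab1 and Mcpt2 rose (kept without each of 6, 3 and 2 single arrays), while Mcpt1, Mcpt2 and Mcpt4 were below the lower quartile on at least 1 array. In such bulk RNA, more cells of a type and more RNA per cell cannot be told apart.

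The mRNAs of the B lineage factors differed little between Cre-ERT2 and control cells, and none of the 10 passed the test. In the fit across all genes with limma, 0 of the 10 rose and 0 fell at a Benjamini-Hochberg adjusted p under 0.05, where 1.92% of all genes were called. At an unadjusted p under 0.05, 2 were higher (Bach2 and Pou2af1) and 0 lower, beside 5.24% of all genes higher and 12.8% lower. Differences in log2 expression, Cre-ERT2 minus control, ran from -0.10 for Bcl11a to 0.28 for Bach2, with 8 positive and 2 negative (36.9% positive over all genes). Their median was 0.06 (-0.03 over all genes), and it went to -0.0017 when control 3 was left out. The median size of a difference was 0.071 for the 10 genes and 0.072 for all genes. The 95% intervals of 7 of the 10 lay wholly within a 1.2-fold change in either direction, with Bach2, Pou2af1 and, barely, Ikzf3 (upper bound 1.2002) reaching past it. The groups did not overlap for 5 genes, Ebf1, Bach2 and Pou2af1 being higher and Lef1 and Bcl11a lower, while 24.8% of all genes had groups that did not overlap (6.59% higher and 18.2% lower).

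**Figure D1:**
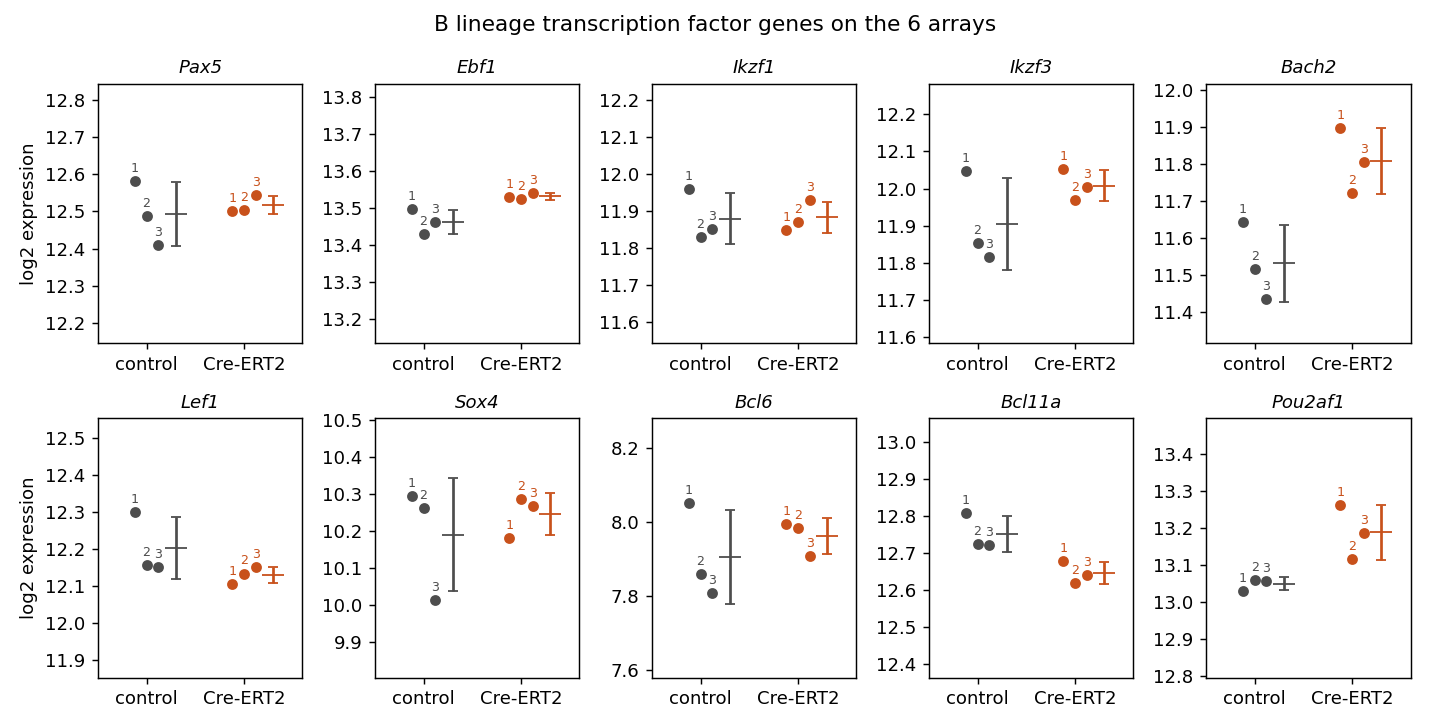
Log2 expression of the 10 genes on each array, with control in grey and Cre-ERT2 in orange. Numbers mark the replicate, the bar beside each group is the mean ± SD (n = 3), and every panel spans the same range of log2 units. The groups are apart for Bach2, Pou2af1, Ebf1, Bcl11a and, by 0.0019, for Lef1, and control 1 is the highest control array for 9 of the 10 genes.

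Pax5, which encodes the factor that commits cells to the B lineage, read 12.58, 12.49 and 12.41 on control arrays 1, 2 and 3 and 12.50, 12.50 and 12.55 on Cre-ERT2 arrays 1, 2 and 3. The 3 Cre-ERT2 values fell inside the control range. The ratio of Cre-ERT2 to control was 1.02 (95% interval 0.926 to 1.12; limma adjusted p = 0.876), and the interval reached at most 11.8% above control. Its difference of 0.02 turned to -0.02 without control 3.

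Ebf1, whose product acts with PAX5 and upstream of it, read 13.50, 13.43 and 13.46 on the control arrays and 13.53, 13.52 and 13.54 with Cre-ERT2. The lowest Cre-ERT2 array was above the highest control by only 0.027, and the SD was 0.033 in control and 0.0091 with Cre-ERT2 (n = 3 each). The difference of 0.07 ± 0.05 (SE) did not pass (limma adjusted p = 0.531), with an exact two-sided permutation p of 0.1, the lowest value open to 3 arrays against 3. The ratio had an interval of 0.969 to 1.14, and the SE was the smallest of the 10 genes.

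The Ikaros family pair showed no difference that passed the test. Ikzf1 read 11.96, 11.83 and 11.85 on control arrays and 11.85, 11.87 and 11.93 on Cre-ERT2 arrays. The groups overlapped almost fully, with a ratio of 1.003 (95% interval 0.915 to 1.098). Its sign turned with arrays centred on their medians (-0.0040) and without control 2 (-0.02), control 3 (-0.01) or Cre-ERT2 3 (-0.02). Ikzf3, which encodes Aiolos, a partner of Ikaros that increases as pre-B cells mature, read 12.05, 11.85 and 11.81 in control and 12.05, 11.97 and 12.003 with Cre-ERT2. The control 1 value lay among those of the Cre-ERT2 arrays while the other control arrays were lower than all 3. Its difference was 0.10 ± 0.07 (SE; limma adjusted p = 0.498).

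Bach2 had the largest difference. The gene encodes a leucine zipper repressor that restrains plasma cell differentiation and promotes p53 checkpoint activity at the pre-B cell stage. It read 11.64, 11.52 and 11.44 on control arrays 1, 2 and 3, and 11.90, 11.72 and 11.81 on Cre-ERT2 arrays 1, 2 and 3. All Cre-ERT2 arrays were above all control arrays, with 0.078 between the nearest values. The means were 11.53 ± 0.10 and 11.81 ± 0.09 (SD, n = 3 each), a 1.21-fold difference (95% interval 1.08 to 1.36), and 4.41% of all genes had a difference of larger size. The adjusted p was 0.0854 in limma's fit with an exact two-sided permutation p of 0.1, again the lowest possible. An adjusted p under 0.1 was met by 6.19% of all genes.

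The Bach2 call depended on the setting. It passed with dim genes left out (limma adjusted p = 0.0417), with arrays centred on their medians (0.0487), after a repeated quantile normalization (0.0479), with an intensity trend (0.0292) and with array weights (0.0154). It passed under none of the 6 fits that left out 1 array, in which limma's adjusted p lay between 0.0663 (without control 1) and 0.259 (without Cre-ERT2 3). Its difference stayed positive in all 16 alternatives, between 0.23 and 0.33. On the Cre-ERT2 arrays Bach2 followed the order of the mast cell marker mean, with Cre-ERT2 1 highest and Cre-ERT2 2 lowest, as did Pou2af1, Ikzf3 and Bcl11a and 18.9% of all genes. Among control arrays the order of Bach2 differed from that of the markers. The part of mast cell RNA in the Bach2 difference was not tested.

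The genes whose profile over the 6 arrays was most like that of Bach2 were Tanc1, a scaffold protein gene, Nlrc3, which encodes an NLR family protein, and Tcirg1, which encodes a subunit of the vacuolar proton pump. Likeness was the mean absolute difference between the 2 genes' deviations from their own means, which came to 0.0097 for Tanc1, 0.011 for Nlrc3 and 0.012 for Tcirg1 among 11453 genes compared. Their differences between the groups were 0.29, 0.28 and 0.30 (limma adjusted p = 0.0817, 0.0841 and 0.0651).

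Bcl6, which encodes a zinc finger repressor of checkpoint genes that opposes BACH2 in pre-B cells, was the dimmest of the 10 probes. It was the only 1 of the 10 that was not above the upper quartile on all 6 arrays. Control arrays read 8.05, 7.86 and 7.81, and Cre-ERT2 arrays read 7.99, 7.98 and 7.91. All 3 Cre-ERT2 values lay between the highest and the lowest control value. Its difference was 0.06 (95% interval -0.11 to 0.22; limma adjusted p = 0.747). BACH2 and BCL6 are known as counterparts, but whether their differences differ from each other was not tested.

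**Figure D2:**
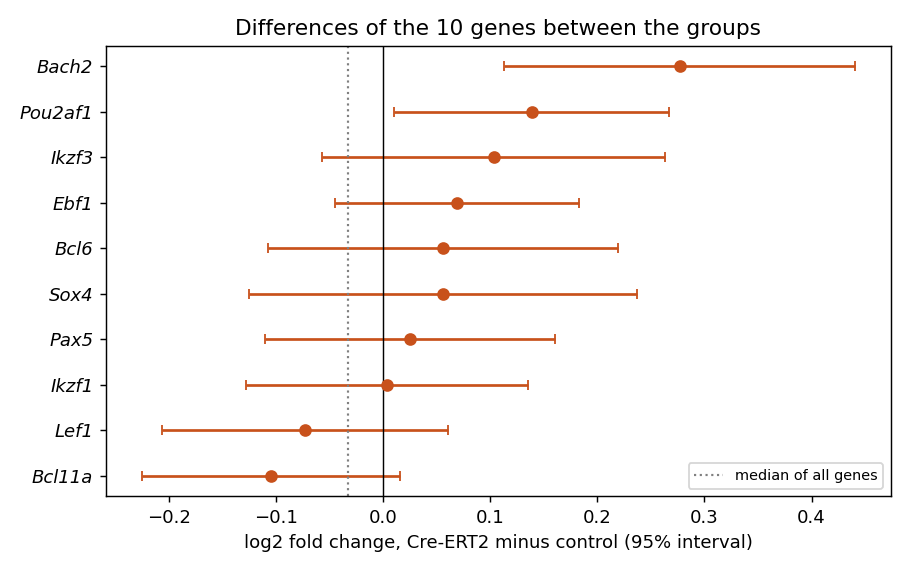
Difference in mean log2 expression, Cre-ERT2 minus control, for each of the 10 genes, with the 95% interval of the limma fit (3 arrays a group). The dotted line is the median of all 19938 genes, at -0.03. The intervals of Bach2 (0.11 to 0.44) and Pou2af1 (0.01 to 0.27) lie above 0 before any adjustment for the number of genes, and the other 8 include 0.

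The HMG-box factors had small differences of opposite sign. Lef1, a nuclear effector of Wnt signalling that also acts in pre-B cells, read 12.30, 12.16 and 12.15 in control and 12.11, 12.13 and 12.15 with Cre-ERT2. Only control 1 stood clear of the Cre-ERT2 arrays, since the nearest values of the groups were 0.0019 apart. Its difference was -0.07 ± 0.06 (SE; limma adjusted p = 0.577), and it was -0.03 without control 1. Sox4, which supports the survival of B cell precursors, read 10.29, 10.26 and 10.01 in control and 10.18, 10.29 and 10.27 with Cre-ERT2. Control 3 lay below all other arrays, and without it the difference went from 0.06 to -0.03. Sox4 had the widest spread in control (SD 0.153, n = 3) and the largest SE, 0.080, of the 10 genes.

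Bcl11a had the most negative difference. It read 12.81, 12.72 and 12.72 on control arrays and 12.68, 12.62 and 12.64 on Cre-ERT2 arrays. Every Cre-ERT2 array was below every control array, by at least 0.042. The ratio was 0.930 (95% interval 0.855 to 1.01; limma adjusted p = 0.348; exact two-sided permutation p = 0.1), and all 16 alternatives gave a negative value, from -0.12 to -0.08, with 0 of them past the threshold.

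Pou2af1 was second to Bach2 in the size of its positive difference. Its coactivator binds OCT1 and OCT2 at octamer sites and is required for germinal centres. Control arrays read 13.03, 13.06 and 13.06, the smallest control spread of the 10 genes (SD 0.017, n = 3). Cre-ERT2 arrays 1, 2 and 3 read 13.26, 13.12 and 13.19, each above all control arrays, the nearest by 0.055. The 1.10-fold difference (95% interval 1.007 to 1.203) had an unadjusted p of 0.0373 and did not pass (limma adjusted p = 0.240). Adjusted p-values under the alternatives ran from 0.0539 to 0.516, and the difference from 0.09 to 0.18. Pou2f2, which encodes its octamer-binding partner OCT2, differed by 0.14 (limma adjusted p = 0.389).

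**Figure D3:**
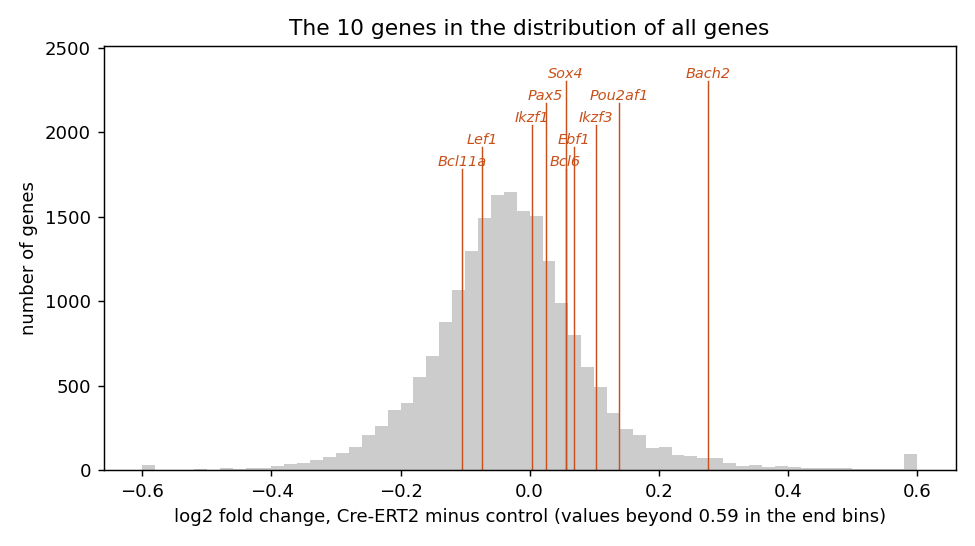
Number of genes (vertical axis) by log2 fold change, Cre-ERT2 minus control, for all 19938 genes, with the 10 factors as orange lines. Values beyond 0.59 are in the end bins. Bach2 (0.28) stands out to the right, and the other 9 lie between -0.10 and 0.14, within the bulk of the distribution.

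**Figure D4:**
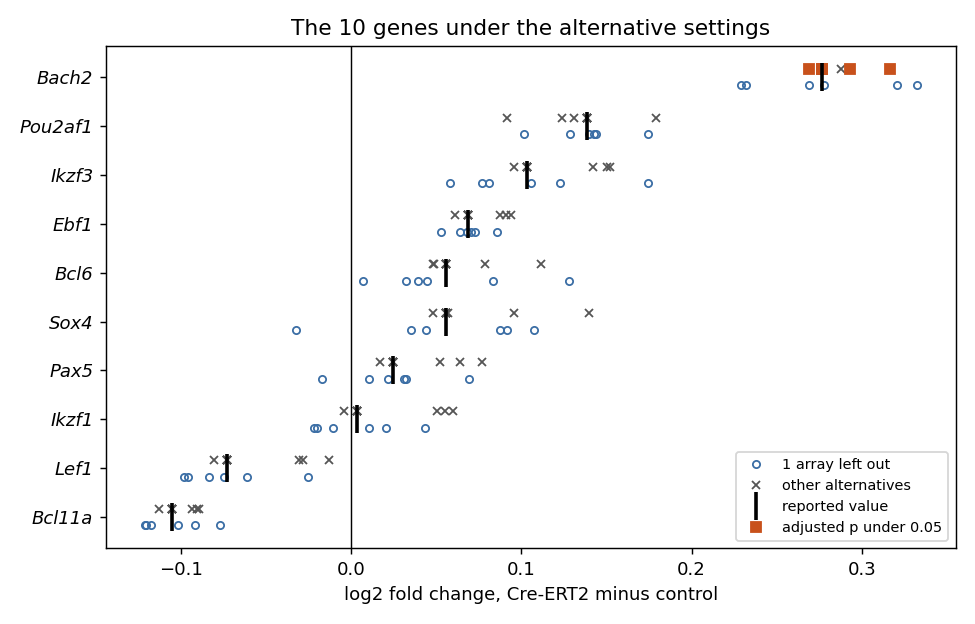
Log2 fold change of each factor under the 16 alternative fits. Open circles leave out 1 array, crosses are the other alternatives, black bars are the reported values and filled squares are fits with an adjusted p under 0.05. Squares appear for Bach2 in 5 fits and for no other gene, and values on both sides of 0 appear for Pax5, Ikzf1 and Sox4.

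Control arrays deviated from their mean in the same direction for most of these genes. Control 1 was the highest control array for 9 of the 10 (all but Pou2af1) and control 3 the lowest for 7. The median deviation from the control mean was 0.093 for control 1, against 0.057 over all genes, and -0.067 for control 3, against -0.033. Cre-ERT2 arrays showed no such pattern, with median deviations between -0.014 and 0.015 and with Cre-ERT2 1, 2 and 3 the highest for 5, 1 and 4 genes. The Cre-ERT2 range was the smaller for 9 of the 10 genes, Pou2af1 being the exception. No share over all genes is given for these counts, so they are not read as particular to the 10 genes.

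Of the partner factors that work beside the 10 in B cell precursors, 1 passed. Of 18 measured, 0 rose and 1 fell, 13 had positive differences (36.9% over all genes) and the median of the 18 was 0.08. Gfi1, a repressor that acts early in lymphoid and myeloid cells, fell by 0.43 on the log2 scale, with a control mean of 8.94 ± 0.15 and a Cre-ERT2 mean of 8.51 ± 0.05 (SD, n = 3 per group, adjusted p = 0.0369 by limma), a call that was kept without control 1 and lost without any other single array. At an unadjusted p under 0.05, 4 of the 18 were higher and 2 lower, beside 5.24% and 12.8% of all genes. Irf8 (0.29), Runx1 (0.21) and Foxp1 (0.21) did not pass, although 3 partner factors were called higher with dim genes left out. The E protein gene Tcf3, whose product acts upstream of Ebf1, differed by -0.08 ± 0.07 (SE), and Foxo1 by 0.10 ± 0.06 (SE). Of 15 close relatives of the 10 factors, such as Ikzf2, Ebf2 and Bcl11b, 0 rose and 0 fell by limma (1 higher and 0 lower at an unadjusted p under 0.05), with a median of -0.02. Ikzf4, which encodes Eos of the Ikaros family, had the lowest p among them, with a log2 difference of 0.26 (limma adjusted p = 0.157).

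Genes that these factors are known to control were counted next, from lists drawn up from textbook knowledge with earlier results of these arrays known. Of 15 measured genes that PAX5 or EBF1 activate, 0 rose and 2 fell, and their median was -0.03, as it was over all genes. Those that fell were Rag2, a subunit of the V(D)J recombinase, by 0.68 on the log2 scale (limma adjusted p = 0.00162), and Cr2, a complement receptor gene of mature B cells, by 0.42 (limma adjusted p = 0.0473). Cr2 was dim, with means of 7.08 in control and 6.66 with Cre-ERT2, below the lowest array median of 7.73. At an unadjusted p under 0.05, 1 was higher and 3 lower, beside 5.24% and 12.8% of all genes. The 3 lower were Rag1 (-0.31, limma adjusted p = 0.138), Rag2 and Cr2. The Rag2 call was kept without each array in turn, and the Cr2 call was lost without each of the 6. No gene of the pre-B receptor or its signalling on this list passed. The largest such difference was that of Blk, a Src family kinase gene, at 0.30 (limma adjusted p = 0.0794). Its groups did not overlap, as for 24.8% of all genes. Vpreb3 differed by -0.10 (limma adjusted p = 0.453). Cd79a differed by -0.03 ± 0.05 (SE), Cd79b by -0.01 ± 0.05, Igll1 by 0.02 ± 0.05, Vpreb1 by -0.04 ± 0.06 and Blnk by 0.04 ± 0.06, each with a limma adjusted p of 0.809 or above.

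Several genes that PAX5 represses rose. Of 9 measured, 5 rose and 0 fell, 9 of 9 had positive differences and the median was 0.39. Over all genes 0.797% rose, 36.9% had positive differences and the median was -0.03. Notch1, which directs progenitors to the T cell fate, read 10.77, 10.58 and 10.53 in control and 11.37, 11.22 and 11.31 with Cre-ERT2. Every Cre-ERT2 value exceeded every control value, and the mean rose 1.59-fold (95% interval of the log2 difference 0.50 to 0.84; limma adjusted p = 0.00600). The chemokine gene Ccl3 (1.98), the Fc receptor gamma chain gene Fcer1g (1.17), Xbp1, a driver of plasma cell secretion (0.40), and the adaptor gene Grap2 (0.39) also rose. Fcer1g and Ccl3 are also expressed by mast cells, whose markers were higher on the same arrays, and the part of those cells was not tested. Flt3 (0.35, adjusted p = 0.0854) did not pass, and Ccr2 (0.11), Csf1r (0.08) and Cd28 (0.05) had control means between 5.503 and 6.776. The Notch1 and Ccl3 calls were kept without each array in turn. Those of Xbp1, Grap2 and Fcer1g were kept without 2, 1 and 1 of the 6 arrays (control 1 or Cre-ERT2 2, control 1, and Cre-ERT2 2), and the count of 5 fell to 2 without control 2, control 3, Cre-ERT2 1 or Cre-ERT2 3. It was 0 when every probe of the array was tested, where Notch1 had a limma adjusted p of 0.0687. Pax5 mRNA itself differed by 0.02 over the same arrays.

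The list of genes that BACH2 or BCL6 repress was split. Of 9 measured, 3 rose and 0 fell, 5 differences were positive and 4 negative, and the median was 0.05. Over all genes 0.797% rose, 1.12% fell and 36.9% had positive differences. At an unadjusted p under 0.05, 4 of the list were higher and 3 lower, beside 5.24% and 12.8% of all genes. The activation marker gene Cd69 rose by 0.65 on the log2 scale (limma adjusted p = 0.00257) and kept its call without each array in turn. Ccl3, on both lists, and the anti-apoptotic gene Bcl2 (0.39, limma adjusted p = 0.0317) also rose, the latter not without control 2, control 3, Cre-ERT2 1 or Cre-ERT2 3. Hmox1, the heme oxygenase gene and a target of BACH2, was nearest to the threshold among the others (limma adjusted p = 0.0565). Its difference was 0.62 with groups that did not overlap, as for 24.8% of all genes. With 1 array left out 2 to 4 genes of the list were called higher. On the Cre-ERT2 arrays Cd69, Ccl3, Bcl2 and Hmox1 followed the order of the mast cell marker mean, as did 18.9% of all genes. Among control arrays Bcl2 and Hmox1 followed it too. Cd69 and Ccl3 did not, being lowest on control 1, where the marker mean was highest. The part of mast cell RNA in these differences was not tested. Prdm1, which encodes the plasma cell regulator BLIMP1 and is a textbook target of both repressors, read 6.96 ± 0.14 and 7.01 ± 0.06 (SD, n = 3 each) and did not pass (limma adjusted p = 0.793). Both Prdm1 means were below the lowest array median of 7.73. Cdkn2a, the Arf locus repressed by BCL6 in pre-B cells, differed by -0.20 (adjusted p = 0.140), and the replication checkpoint genes Atr (-0.25) and Chek1 (-0.23) did not pass either (adjusted p = 0.0951 and 0.0963).

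Among 13 genes controlled by Ikaros and Aiolos, 0 rose and 1 fell, Rag2, and the median was -0.04. At an unadjusted p under 0.05, 1 was higher and 3 lower, beside 5.24% and 12.8% of all genes. The 3 lower were Rag2, Rag1 (-0.31) and Il7r (-0.28). Ccnd2, which encodes cyclin D2, differed by 0.25 (limma adjusted p = 0.0613), Myc by -0.17 ± 0.08 (SE) and Ccnd3 by -0.05 ± 0.05 (SE). Of 9 LEF1 and TCF target genes of Wnt signalling, 0 rose and 0 fell by limma (0 higher and 1 lower at an unadjusted p under 0.05), with a median of -0.06. Lgr5, a Wnt target and receptor gene, was the exception at the unadjusted level (-0.31, adjusted p = 0.0666), while Axin2, the most general Wnt target, differed by -0.07 ± 0.11 (SE). The control means of Lgr5 (7.62) and Axin2 (7.57) were below the lowest array median of 7.73.

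**Figure D5:**
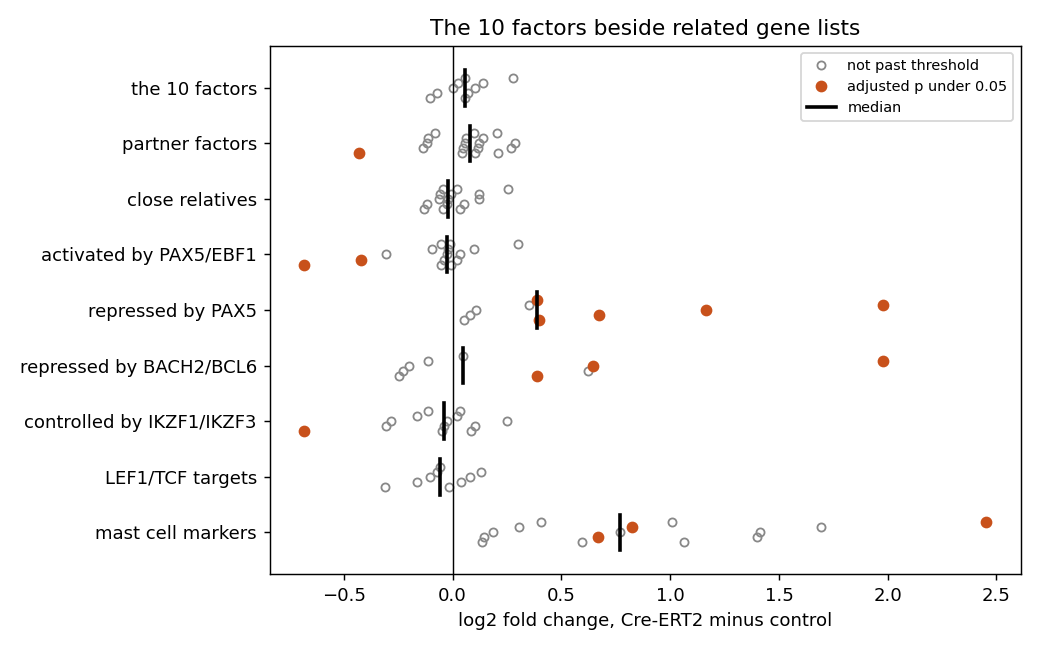
Log2 fold change, Cre-ERT2 minus control, of each measured gene (points) in the 10 factors, 7 related lists and the mast cell markers. Orange points passed an adjusted p of 0.05 and bars are medians. The 10 factors lie close to 0, the genes repressed by PAX5 are all above 0 with a median of 0.39, and the mast cell markers have a median of 0.77.

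Markers of other cell types showed how far the lineage label held. Of 11 pre-B cell markers measured, Rag2 fell and 0 rose by limma (1 higher and 3 lower at an unadjusted p under 0.05). Over all genes 5.24% were higher and 12.8% lower at that unadjusted level. Rag1 (-0.31, limma adjusted p = 0.138) and Il7r (-0.28, 0.245) were lower with groups that did not overlap, but did not pass. Groups did not overlap for 4 of the 11 markers and for 24.8% of all genes. Of 8 T cell markers and 11 myeloid markers, 0 rose and 0 fell by limma (1 and 2 higher, and 1 and 0 lower, at an unadjusted p under 0.05), with medians of 0.04 and 0.05, and Lyz2, a lysozyme gene of myeloid cells, had a difference of 1.07 (adjusted p = 0.0651). Of 6 plasma cell markers Xbp1 rose, while Sdc1 (-0.32) and Jchain (-0.22) had negative values that did not pass. The 3 erythroid markers measured had a median of 0.0048.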

How the data were processed

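The labels' protocols describe biotin labelling of total RNA from 6 samples for Affymetrix arrays. The authors deposited log2 expression values (2.47 to 14.81) for 35556 probes. The submitters' processing notes name RMA and Partek 6.5, and the genome build is not given in the sources used here. No further scaling was applied. The number of arrays limits the precision.

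Probes were named through the platform's annotation. Of them, 21789 name 1 gene, 1621 several and 12146 none, and the last 2 kinds were left out. The brightest probe stood for each of the 999 genes with several, which left 19938 genes. Groups and replicate numbers came from the sample titles. Cre-ERT2 and control were compared with lmFit and eBayes (limma 3.58.1, R 4.3.3). All genes entered the Benjamini-Hochberg adjustment and 0.05 was the threshold. The procedure was tested on simulated data, and the outcome is not given here. An exact permutation test over arrays was run beside it for each factor. Intervals are at 95% and are not adjusted for the number of genes.

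The members and lists were chosen with earlier results of these data known. The related lists and the cell type markers hold 168 entries with the 10 factors and Spry1 and Spry2, of which 154 were measured. The text names all 10 factors, the called genes of each list (up to 4, or the gene of lowest p) and the 3 profiles nearest to Bach2, the factor of lowest p. Fcer1g and the other list members named were chosen after their values were seen. Alternatives changed the genes tested, probe choice, scaling, variance model, array weights, replicate block, arrays and threshold. Their use on the related lists was added after seeing the data. Promoter sequences came from RefSeq and no probe positions were used.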

Additional observations from a re-analysis of the deposited data

How the results depend on the processing

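Limits: 3 arrays a group, 1 probe a factor, and no array of Cre alone. Settings were changed 1 at a time. Of the 10 factors, Bach2 was called higher (1 factor) with dim genes left out, arrays centred on their medians, repeated quantile normalization, an intensity trend, array weights or an adjusted p under 0.1, and 0 were called under the other settings. Without 1 array the counts of factors stayed at 0 and their median ran from -0.0017 to 0.097. Signs turned for Ikzf1 (-0.0040 with centred arrays, and -0.022, -0.011 and -0.020 without control 2, control 3 and Cre-ERT2 3), Pax5 (-0.017 without control 3) and Sox4 (-0.032 without control 3). Their highest values without 1 array were 0.043, 0.069 and 0.108. The cause was not tested.

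Counts over all genes, 159 higher and 223 lower, became 364 and 791 with dim genes left out, 13 and 8 with every probe tested, 314 and 692 with centred arrays, 369 higher after repeated quantile normalization, 366 and 821 with an intensity trend, 763 and 1082 with array weights, 43 lower without both arrays numbered 1, and 401 and 833 at an adjusted p under 0.1. Leaving out 1 array gave 31 to 188 higher and 18 to 111 lower. Of the calls, 41.6% were higher, against 31.2% with centred arrays, 52.5% after repeated quantile normalization, 61.9% with every probe tested and 74.1% without both arrays numbered 1. With 1 array left out it was 46.4% to 74.9%, highest without control 1 (188 higher, 63 lower), so the balance of calls turned under several of these settings. The median of all genes moved by less than 0.1 under each scaling.

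Related lists also moved. Partner factors had 3 higher with dim genes left out, centred arrays, repeated quantile normalization, an intensity trend and an adjusted p under 0.1, 4 higher with array weights, and 0 lower with every probe tested (0 to 1 without 1 array). Among close relatives 1 was higher with array weights. Of the genes activated by PAX5 or EBF1, 1 was higher with dim genes left out, repeated quantile normalization, an intensity trend, array weights and an adjusted p under 0.1. In this list 1 was lower with dim genes left out, a setting in which Cr2 was not tested. The number lower was also 1 with every probe tested, both arrays numbered 1 left out, and in each fit without 1 array. Genes repressed by PAX5 had 0 higher with every probe tested and 2 to 4 without 1 array. Genes repressed by BACH2 or BCL6 had 1 higher with every probe tested, and 2 lower with dim genes left out, array weights and an adjusted p under 0.1, and 1 lower with an intensity trend. Ikaros and Aiolos genes had 1 higher with dim genes left out, centred arrays, repeated quantile normalization, an intensity trend, array weights and an adjusted p under 0.1. LEF1 and TCF targets had 1 lower with dim genes left out, an intensity trend, array weights and an adjusted p under 0.1.

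Deviations of same-numbered arrays correlated at 0.268, 0.336 and 0.028 over all genes. Control 1 with Cre-ERT2 2 gave -0.255, and control 2 with Cre-ERT2 1 gave -0.328. Only the arrays numbered 3 did not correlate best with their own number. Their values were near 0 (0.030 for control 3 with Cre-ERT2 1, 0.044 for control 2 with Cre-ERT2 3). The labels do not say what the numbers mark, so the main fit took no pairs. Whether same-numbered arrays share a culture or day was not tested. With the replicate block 296 genes were higher, and the factors kept 0 calls (Bach2 adjusted p = 0.0563 by limma). The block took limma's adjusted p from 0.0494 to 0.000434 for Fcer1g and from 0.348 to 0.412 for Bcl11a.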
